A study of Drosophila melanogaster with 12 samples.

Results

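Small RNAs that map to annotated piRNA clusters were examined in fly heads with and without human TDP-43 (hTDP-43) in glia. The members are all rows of the small RNA count table that carry the piRNA cluster prefix, 96 of 285351 features. Of these, 94 have only a number between 2 and 142, and the remaining rows are 42AB and flam. The small RNA table covers 6 libraries of size-selected small RNAs from heads of Drosophila melanogaster. Libraries S19, S20 and S21 are Repo / + (labelled Repo/2U), which carry the Repo driver but no hTDP-43 transgene. Libraries S22, S23 and S24 are Repo > hTDP-43 (labelled Repo/TDP43), in which that driver expresses hTDP-43 in glial cells. All libraries carry the strain label 2U, and the driver is present in both small RNA groups. RNA-seq of heads, used for the genes that make piRNAs, adds 2 libraries of Repo > hTDP-43 (S05 and S06) and 2 of hTDP-43 / + (labelled TDP43/2U, S14 and S15), which has the transgene but no driver, from flies in the second week after eclosion. The age and sex of the flies behind the small RNA libraries are not given in the sources used here. Neither is it stated whether the 3 libraries of a genotype come from separate populations, so p-values measure only the spread between these libraries. The heads are mixed tissue, in which glia are only some of the cells.

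PIWI-interacting RNAs (piRNAs) are small RNAs that guide PIWI-family Argonaute proteins to transposon transcripts. In Drosophila they are best known from the gonads, where most arise from piRNA clusters, heterochromatic loci packed with remnants of old transposon insertions. 42AB, named for its cytological band on chromosome arm 2R, is a germ line cluster transcribed from both strands. Flamenco (flam), on the X chromosome, is transcribed from a single strand in the somatic follicle cells of the ovary, where its piRNAs silence gypsy-family retrotransposons. Outside the gonads, transposons are targeted mainly by Dicer-2-dependent siRNAs, which can arise from the same repeats. The counts are divided neither by read length nor by strand for the clusters, so piRNAs, siRNAs and breakdown fragments on a cluster cannot be told apart. The files pair the cluster numbers with no coordinates, so levels are not per length and no positions or sequences of clusters are given.

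The libraries were deep, but few of their reads fell on clusters. Totals were 31074082 to 37736599 counts per library, of which miRNAs took 76.2% to 85.2%, rRNA 6.37% to 10.5%, exon fragments 3.63% to 6.75% and transposons on the antisense strand 0.579% to 0.773%. Library S22 held the highest share of exon fragments. The TMM factor (edgeR's correction of the library size for composition) was 1.37 in S22, 0.770 in S20 and between 0.899 and 1.14 in the others. Because this scaling moved the median log2 fold change of all tested features from 0.14 with library size alone to 0.018, changes are given with TMM scaling and, where it matters, with library size alone. Levels are given as counts or as reads per 1000000 of the library total (RPM). The head miRNA miR-124-3p was abundant, with 900101 to 1362642 counts per library. A small signal from miRNAs of the gonads was present too. The summed level of 6 rows of the ovary miRNAs miR-989, miR-318 and miR-994 was 2.07, 1.83 and 2.38 RPM in S19, S20 and S21 and 7.32, 6.38 and 5.86 RPM in S22, S23 and S24. The Repo > hTDP-43 libraries were thus all above the Repo / + libraries in these miRNAs. Of the 3 ovary rows tested, miR-318-3p (log2 fold change 1.63, adjusted p = 0.000492) and miR-994-5p (log2 fold change 1.61, adjusted p = 0.0028) rose in the edgeR quasi-likelihood test. Of 7 tested rows of testis miRNAs, miR-983-3p (log2 fold change 2.01, adjusted p = 0.0183) and miR-984-5p (log2 fold change 1.04, adjusted p = 0.0272) rose in that test. The estimate of miR-983-5p was above 0 as well (1.42, adjusted p = 0.103). Those of miR-975-5p, miR-976-3p, miR-977-3p and miR-978-3p were below 0 (-0.57, -0.66, -0.91 and -0.074), and none of these passed. Of all 294 tested miRNA rows, 26 were called higher and 11 lower. None of 6 head miRNA rows passed the test. The part of these miRNA differences in the cluster values below was not tested.

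Cluster reads were a minute share of the small RNAs in every library, and their sum did not separate the genotypes. The 96 rows together received 1878, 1586 and 1997 counts in S19, S20 and S21 and 1915, 1735 and 1679 counts in S22, S23 and S24. In S19, S20 and S21 this was 49.8, 44.6 and 64.3 RPM, and in S22, S23 and S24 it was 54.3, 48.8 and 44.8 RPM. S21 stood above all the others, with an exact Poisson interval (95%, counting error only) of 61.5 to 67.1 RPM, and the ranges of the genotypes overlapped. The means were 52.9 ± 10.2 RPM (SD, n = 3) in Repo / + and 49.3 ± 4.80 RPM (SD, n = 3) in Repo > hTDP-43, a difference of -3.60 RPM (exact permutation test, two-sided, p = 0.7, where the smallest p that 20 groupings allow is 0.1). Without S21 the difference was 2.09 RPM, in the opposite direction.

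Relative to the transposon rows, which count sense and antisense reads of whole families, cluster reads of the genotypes overlapped as well. They amounted to 0.547%, 0.589% and 0.648% of transposon reads in S19, S20 and S21 and to 0.633%, 0.546% and 0.558% in S22, S23 and S24. The highest library was again a control and the lowest a Repo > hTDP-43 library. On the log2 scale the ratio was -7.40 ± 0.12 (SD, n = 3) against -7.44 ± 0.11 (SD, n = 3), a difference of -0.038 (exact permutation test, two-sided, p = 0.6). The difference changed sign to 0.025 without S21 and to 0.0018 without S23. How a read that maps to several features was assigned is not given in the sources used here.

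**Figure D1:**
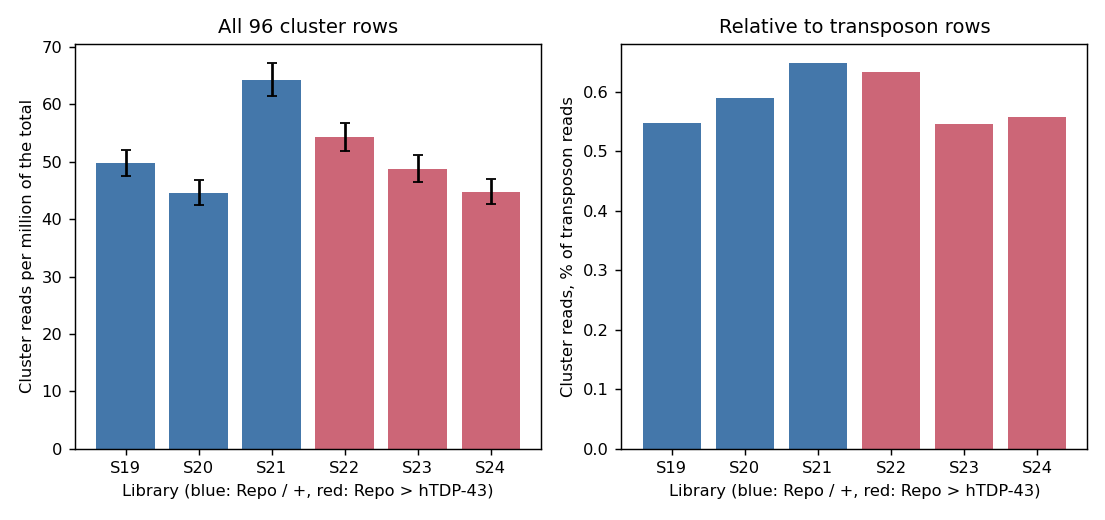
Reads on all 96 piRNA cluster rows in each small RNA library, as RPM (left, bars with exact 95% Poisson intervals) and as a percentage of transposon reads (right). Repo / + (S19 to S21, blue) and Repo > hTDP-43 (S22 to S24, red) overlap in both, and S21 is the highest library with 64.3 RPM and 0.648%.

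Abundance was concentrated on a few clusters. Of the 10790 cluster counts over all libraries, the 3 most abundant rows held 27.6% and the 10 most abundant 61.9%. At the other end, 31 rows had 3 or fewer counts in every library and 9 had a single count over all 6 libraries. No count was found in any Repo / + library for 8 rows and in any Repo > hTDP-43 library for 3 rows. A count of 0 in a library allows up to 3 counts, or 0.0795 to 0.0965 RPM depending on depth. The filter on low counts kept 31 of the 96 rows, which held 90.2% of the cluster counts, and left 65 untested.

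42AB was the most abundant cluster, with 10.2% of all cluster counts. It had 174, 133 and 182 counts in S19, S20 and S21 and 194, 215 and 198 in S22, S23 and S24. This corresponds to 4.74 ± 1.06 RPM (SD, n = 3) in Repo / + and 5.61 ± 0.40 RPM (SD, n = 3) in Repo > hTDP-43. The groups overlapped in RPM, since S21 lay above S22 and S24. The log2 fold change was 0.18 (SE 0.20, 95% interval -0.26 to 0.62, edgeR adjusted p = 0.688).

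The flam row was almost empty, in contrast to 42AB. It had 2, 2 and 1 counts in S19, S20 and S21 and 3, 3 and 1 in S22, S23 and S24. Every library was at or under the floor of 3 counts, and no fold change is given. Of the transposon rows that flamenco piRNAs are known to target in the ovary, gypsy and Idefix were nevertheless well covered, while ZAM was sparse. Antisense gypsy had 1117, 1065 and 1022 counts in Repo / + and 769, 850 and 740 in Repo > hTDP-43, groups that did not overlap in counts (log2 fold change -0.60, SE 0.19, edgeR adjusted p = 0.098). Antisense Idefix had between 12174 and 21327 counts (log2 fold change 0.32, adjusted p = 0.353) and antisense ZAM between 52 and 69. Sense Idefix fell, from 714, 614 and 483 counts to 263, 220 and 234 (log2 fold change -1.51, SE 0.19, edgeR adjusted p = 0.00109). Sense gypsy (log2 fold change 0.051, adjusted p = 0.910) and sense ZAM (log2 fold change -0.20, adjusted p = 0.639) did not pass the test. In the RNA-seq of heads described below, the flam transcript had 73 and 69 counts in Repo > hTDP-43 (S05 and S06) and 52 and 47 in the hTDP-43 / + control (S14 and S15). That difference did not pass the test (log2 fold change 0.83, SE 0.32, edgeR adjusted p = 0.102).

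**Figure D2:**
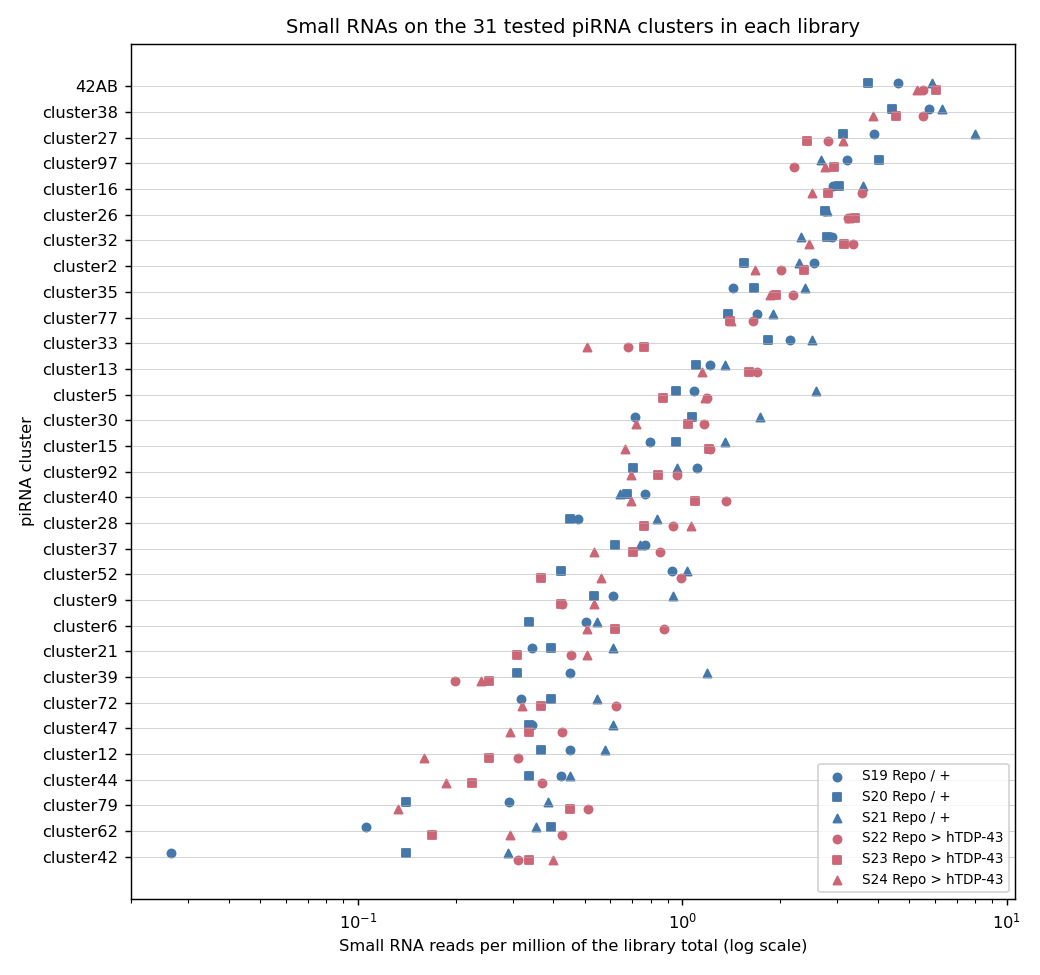
Level of each of the 31 tested piRNA clusters in each small RNA library, as RPM on a log axis, ordered by mean level. Blue points are Repo / + (S19 to S21) and red points Repo > hTDP-43 (S22 to S24); in cluster33 the 3 red points lie between 0.506 and 0.759 RPM and the 3 blue points between 1.83 and 2.51 RPM.

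Across the tested clusters, 2 fell and none rose in Repo > hTDP-43. Their names are cluster33 and cluster12, and cluster12 passed the filter on low counts only through Repo / +, where it was higher. The 2 of 31 are 6.45%, beside 9.04% called among all 28127 tested small RNA features (edgeR quasi-likelihood test, Benjamini-Hochberg adjusted p under 0.05). Among the 25 clusters that passed the filter through both groups, 1 was called, cluster33. By direction, the 2 lower clusters stand beside 2.28% of all features called lower, and the 0 higher clusters beside 6.76% called higher. At an unadjusted p under 0.05, 7 clusters were lower and 1 higher, together 25.8% of 31 beside 19% of all features. The transposon rows had 16.7% of 114 antisense and 24.8% of 113 sense rows called, with 11 antisense (9.65%) and 14 sense rows (12.4%) lower and 8 and 14 higher.

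The median log2 fold change of the 31 clusters was -0.18, beside 0.018 for all tested features. With library size alone it was -0.075 beside 0.14. The estimate was below 0 for 21 clusters with TMM scaling and for 18 with library size alone. For 17 of the 31 the whole 95% interval lay within 1 of no change on the log2 scale, although intervals of sparse rows can be too narrow. Standard errors were 0.15 to 0.33 for the 10 most abundant clusters and reached 0.50 among the rest.

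**Figure D3:**
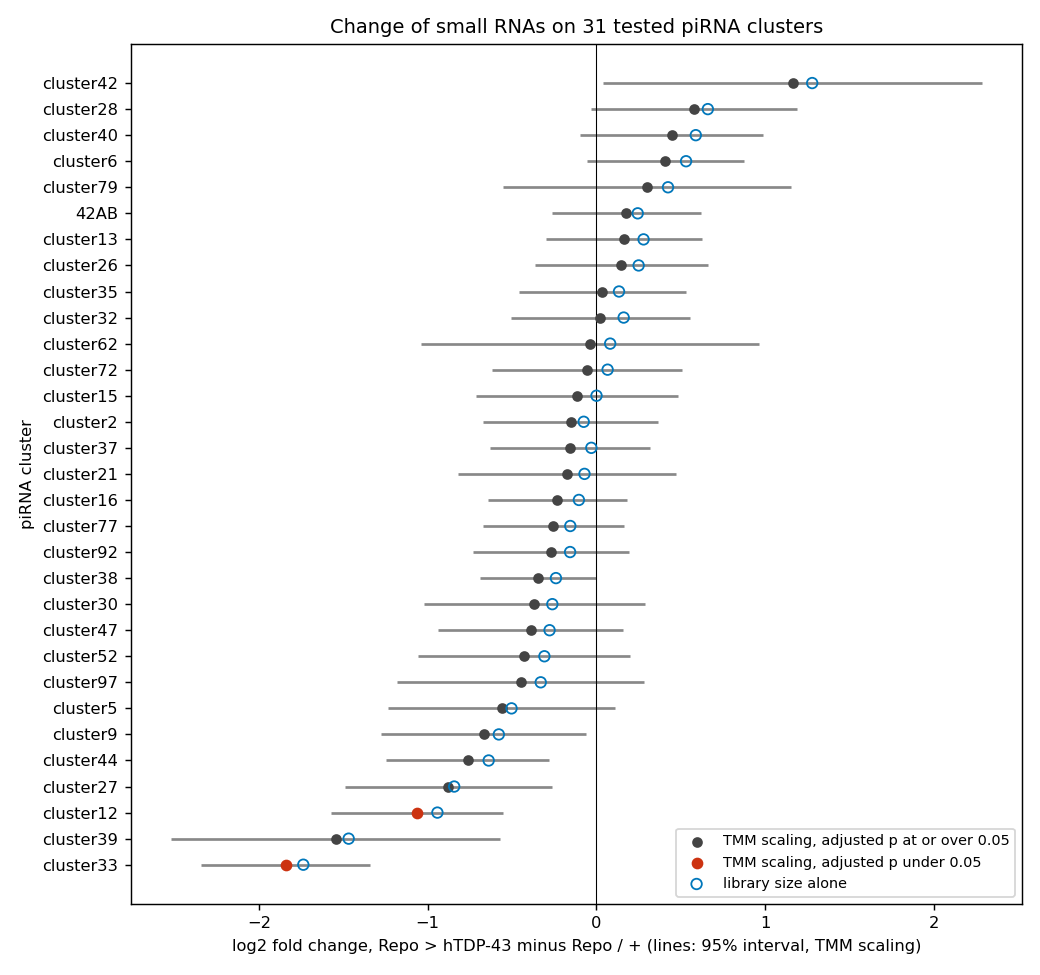
Log2 fold change (Repo > hTDP-43 minus Repo / +) of the 31 tested piRNA clusters with TMM scaling (filled points, lines are 95% intervals) and with library size alone (open points). The 2 red points, cluster33 at -1.84 and cluster12 at -1.06, have an adjusted p under 0.05, and the interval of 42AB spans 0. Intervals of sparse rows can be too narrow.

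cluster33 showed the clearest decrease. It had 81, 65 and 78 counts in S19, S20 and S21 and 24, 27 and 19 counts in S22, S23 and S24. In RPM the controls were at 2.15, 1.83 and 2.51 and the Repo > hTDP-43 libraries at 0.681, 0.759 and 0.506. Every Repo > hTDP-43 library was below every Repo / + library, with a wide gap between the groups. The means of 2.16 ± 0.34 RPM and 0.649 ± 0.13 RPM (SD, n = 3 each) differed 3.33-fold. The log2 fold change was -1.84 (SE 0.22, 95% interval -2.34 to -1.34, edgeR adjusted p = 0.000833). With library size alone it was -1.74 (SE 0.31, adjusted p = 0.00504). Over 15 alternatives the log2 fold change ran from -2.07 to -1.65, and cluster33 was called in 14 of them. Leaving out any library kept the call, with a highest adjusted p of 0.00531, while library size alone with no filter on low counts gave an adjusted p of 0.0744. cluster33 held 2.72% of the cluster counts and was the eleventh most abundant row.

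cluster12 was the other called row. It was sparser, with 17, 13 and 18 counts in S19, S20 and S21 and 11, 9 and 6 in S22, S23 and S24. The groups did not overlap but were close, and the log2 fold change was -1.06 (SE 0.23, edgeR adjusted p = 0.0271). The row entered the test only through the group where it was high, since 3 Repo / + libraries but 1 Repo > hTDP-43 library exceeded the filter's cutoff of 0.281 RPM, and with no filter its adjusted p was 0.126. Leaving out S23 kept the call (adjusted p = 0.0439). It was lost without S19 (adjusted p = 0.0749), S20 (adjusted p = 0.0605), S21 (adjusted p = 0.103), S22 (adjusted p = 0.0789) or S24 (adjusted p = 0.0927). Library size alone gave a log2 fold change of -0.94 (adjusted p = 0.190). DESeq2 gave a larger SE of 0.56 and an adjusted p of 0.472.

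Among the 10 most abundant clusters none passed the test, and their log2 fold changes ran from -0.88 to 0.18 with a lowest adjusted p of 0.0892 in edgeR. cluster38, close to 42AB in abundance, had 217, 157 and 196 counts in S19, S20 and S21 and 195, 162 and 145 in S22, S23 and S24. The groups overlapped in counts and in RPM but not in TMM-scaled counts, and the log2 fold change was -0.35 (SE 0.15, adjusted p = 0.256). cluster97 had 121, 143 and 83 counts against 78, 104 and 103 (log2 fold change -0.45, SE 0.33, adjusted p = 0.520). S22 was the lowest and S20 the highest library for it in RPM, and the ranges overlapped. cluster16 had 110, 108 and 112 counts against 126, 100 and 94, with S21 and S22 nearly equal in RPM (log2 fold change -0.23, SE 0.18, adjusted p = 0.555).

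cluster26 had 104, 98 and 87 counts in S19, S20 and S21, or 2.77 ± 0.025 RPM (SD, n = 3), and 114, 121 and 122 counts in S22, S23 and S24, or 3.30 ± 0.093 RPM (SD, n = 3). The groups did not overlap in RPM, but in the fit the difference was small against its error (log2 fold change 0.15, SE 0.23, edgeR adjusted p = 0.783). cluster32 had 109, 99 and 72 counts against 118, 112 and 92 (log2 fold change 0.024, SE 0.24). cluster2 had 96, 55 and 71 counts against 71, 84 and 63 (log2 fold change -0.15, SE 0.23). For both, the 2 genotypes overlapped and the sign of the estimate changed on leaving out single libraries. cluster35 had 54, 59 and 74 counts against 77, 69 and 70 (log2 fold change 0.036, SE 0.22). cluster77 had 64, 49 and 59 counts against 58, 50 and 53 (log2 fold change -0.26, SE 0.19). The adjusted p of these clusters was 0.519 or above in edgeR.

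A number of clusters were highest in the control library S21, well above the other controls. cluster27, the third most abundant row, had 147, 111 and 248 counts in S19, S20 and S21 and 99, 86 and 117 in S22, S23 and S24. S21 lay far above the rest at 7.98 RPM, with S19 at 3.90 RPM and S20 at 3.12 RPM, while the Repo > hTDP-43 libraries were at 2.81, 2.42 and 3.12 RPM. The log2 fold change was -0.88 (SE 0.28, adjusted p = 0.0892 in edgeR and 0.0406 in DESeq2), and -0.55 without S21 (adjusted p = 0.309). cluster39 behaved alike, with 17, 11 and 37 counts against 7, 9 and 9. Its log2 fold change was -1.55 (SE 0.44, edgeR adjusted p = 0.0572), which became -0.98 without S21 (adjusted p = 0.146) and -1.75 without S20 (adjusted p = 0.0485).

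S21 was the highest library by RPM in 16 of the 31 tested clusters and at least 1.5 times above every other library in 4 of them, cluster27, cluster39, cluster5 and cluster9. No other library was that far above the rest in any tested cluster. The matching shares over all tested features were not counted, so this is not shown to be particular to clusters. RPM does not correct for composition, and S21 also had the highest shares of antisense (0.773%) and sense (0.219%) transposon reads. Among the untested rows, cluster17 had 21 counts in S21 and 5 to 8 in the other libraries. Over the 31 clusters, the mean chi-square per degree of freedom within a group with TMM scaling, which is near 1 where replicates differ by counting error only, was 3.29 in Repo / + and 2.71 in Repo > hTDP-43. The medians were 1.07 and 1.75. With library size alone the means were 4.75 and 1.83 and the medians 1.92 and 1.33.

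The same library stood out in a set of testis miRNAs. The summed level of 15 rows of miR-972 to miR-979 was 3.31, 3.07 and 9.53 RPM in S19, S20 and S21 and 3.80, 4.02 and 5.09 RPM in S22, S23 and S24. The 4 rows of miR-983 and miR-984, also from the testis list, did not follow this pattern, with 1.35, 1.55 and 2.83 RPM in Repo / + and 3.63, 5.29 and 5.92 RPM in Repo > hTDP-43. The split of the testis miRNAs into these sets was chosen after their values were seen, and their part in the cluster values was not tested. cluster33 was not set apart in S21, where it had 2.51 RPM beside 2.15 RPM in S19.

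**Figure D4:**
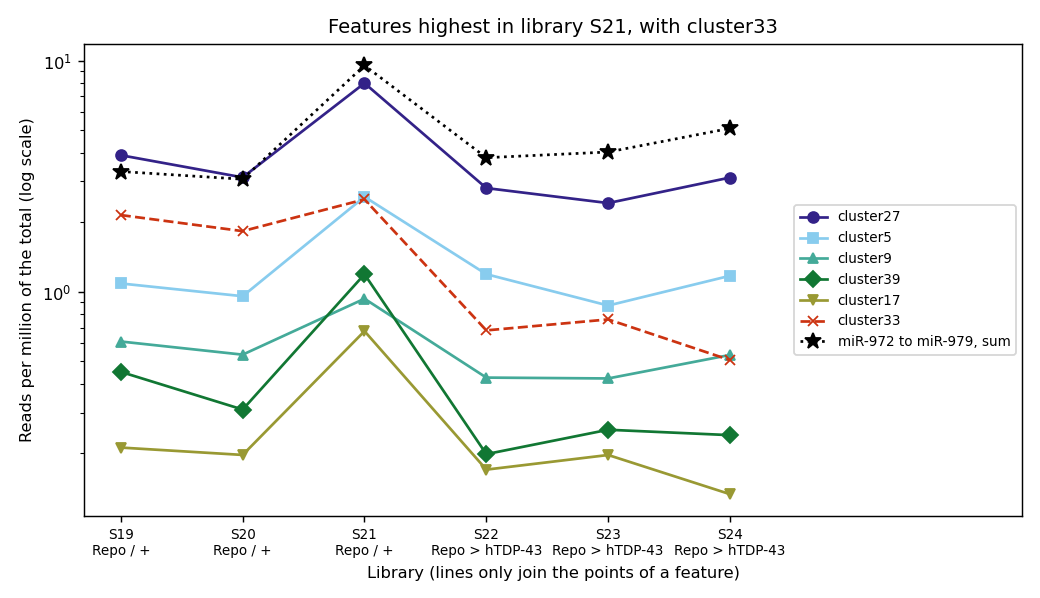
RPM (log axis) in each small RNA library for 5 clusters picked because they stand out in S21, for cluster33 and for the sum of miR-972 to miR-979. The 5 are cluster27, cluster5, cluster9, cluster39 and the untested cluster17. The sum of the miRNAs reaches 9.53 RPM and cluster27 reaches 7.98 RPM in S21, whereas cluster33 falls from the 3 Repo / + libraries to the 3 Repo > hTDP-43 libraries.

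The remaining 19 tested clusters had mean levels of 0.251 to 1.35 RPM and log2 fold changes of -1.55 to 1.16, and none passed the test in edgeR, the lowest adjusted p being the 0.0572 of cluster39. By RPM, 5 of the 31 tested clusters had all Repo > hTDP-43 libraries below all Repo / + libraries (16.1%, beside 3.71% of all tested features) and 2 had them above (6.45%, beside 14.5%). With TMM-scaled counts 8 were lower (25.8%, beside 11.6%) and 1 higher (3.23%, beside 15.6%). The lower clusters by RPM were cluster33, cluster27, cluster39, cluster12 and cluster9, and 3 of these are clusters in which S21 was at least 1.5 times above the other libraries. The higher ones by RPM were cluster26 and cluster42. cluster42 had 1, 5 and 9 counts in Repo / + and 11, 12 and 15 in Repo > hTDP-43 (log2 fold change 1.16, SE 0.50, edgeR adjusted p = 0.243) and passed the filter only through its counts in Repo > hTDP-43. cluster39, cluster12 and cluster44 passed the filter only through Repo / +, where they were higher. All of these are among the 8 lower clusters by TMM-scaled counts, and cluster39 and cluster12 are among the 5 by RPM.

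Of the 65 untested rows, 37 had at least 10 counts over the 6 libraries, and the groups did not overlap in RPM in 5 of them. Of these 4 were higher in Repo > hTDP-43, which is 10.8% of 37 beside 11.7% of all features left out by the filter at the same minimum, and 1, cluster17, was lower, beside 2.73%. The widest gap was in cluster99, with 2, 0 and 2 counts in S19, S20 and S21 and 12, 7 and 10 in S22, S23 and S24. Against the floor of 3 counts per library it was at least 3.09-fold higher in Repo > hTDP-43. Without the filter its adjusted p was 0.00202 in edgeR, and 0.0888 with library size alone. cluster41 had 1, 0 and 2 counts against 6, 5 and 5, a mean level 1.71-fold over the same floor. Without the filter its adjusted p was 0.172 in edgeR, and 0.244 with library size alone. cluster56 had 5, 3 and 6 counts against 11, 10 and 11, and cluster89 had 4, 4 and 5 against 7, 6 and 7. These rows were singled out after their values were seen.

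Transcripts of the genes that make piRNAs were compared between Repo > hTDP-43 (S05 and S06) and hTDP-43 / + (S14 and S15) by RNA-seq. The hTDP-43 / + control differs from that of the small RNA libraries, so the driver itself varies here and does not vary there. In the small RNA libraries the presence of the transgene varies instead. The study reported higher gypsy transcript levels in heads with the undriven transgene, and its part in the small RNA values was not tested. Totals were 22476024 to 41150009 counts per library. All 35 genes of the list were found, and 32 passed the filter. In bulk samples fewer cells of a type and less RNA per cell cannot be told apart.

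Of the 32 pathway genes, 9 rose and 1 fell. Of the 9, zuc and BoYb passed the filter only through Repo > hTDP-43, where they were higher, and among the 28 genes that passed through both groups 7 rose and 1 fell. The 10 called are 31.2% of those tested, beside 27.8% of all 13507 tested features (edgeR quasi-likelihood test, adjusted p under 0.05). The 9 higher are 28.1%, beside 15.3% of all features, and the 1 lower is 3.13%, beside 12.5%. The median log2 fold change was 0.43 for the list and 0.0023 for all features, and library size alone moved the latter to 0.17. The counts were low for most of these genes.

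Among the PIWI proteins, piwi, the nuclear Argonaute that silences transposon transcription, rose. It had 87 and 68 counts in S05 and S06 and 28 and 40 in S14 and S15 (log2 fold change 1.50, SE 0.31, adjusted p = 0.0166). aub and AGO3, the partners of the ping-pong cycle, did not pass the test. aub had 116 and 84 counts against 72 and 72 (log2 fold change 0.76, adjusted p = 0.0658, and 0.0489 with library size alone), and AGO3 had 47 and 42 against 49 and 33 (log2 fold change 0.40, adjusted p = 0.490).

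Genes for the cutting and loading of cluster transcripts changed unevenly. zuc, the endonuclease that cuts piRNA precursors, had 12 and 17 counts in S05 and S06 and 0 and 2 in S14 and S15, at least 6.20-fold higher against the floor of 3 counts per library (edgeR adjusted p = 0.0259, no adjusted p in DESeq2), having passed the filter only through Repo > hTDP-43. The Tudor-domain genes fs(1)Yb (log2 fold change 1.56, adjusted p = 0.0116), BoYb (log2 fold change 2.27, adjusted p = 0.0170) and vret (log2 fold change 1.76, adjusted p = 0.0299) rose. BoYb had 42 and 22 counts against 7 and 9 and, like zuc, passed the filter only through Repo > hTDP-43. armi, a helicase of the same step, had 409 and 270 counts against 346 and 388 (log2 fold change 0.17, adjusted p = 0.388). Hen1, the methyltransferase that protects the ends of piRNAs and siRNAs, had 116 and 70 against 67 and 90 (log2 fold change 0.53, adjusted p = 0.169).

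The lowest adjusted p-values were those of 2 components of the germ line nuage, the perinuclear site of piRNA amplification, and of nxf2. krimp, a Tudor-domain scaffold, had 101 and 75 counts in S05 and S06 and 21 and 24 in S14 and S15 (log2 fold change 2.26, SE 0.31, adjusted p = 0.00592). spn-E, a helicase, had 250 and 230 counts against 101 and 84 (log2 fold change 1.68, SE 0.25, adjusted p = 0.00744). nxf2, a nuclear factor which acts with Piwi in transcriptional silencing, had 211 and 156 counts against 67 and 84 (log2 fold change 1.58, SE 0.20, adjusted p = 0.00501). In each of these genes both Repo > hTDP-43 libraries were above both controls. qin, a further nuage gene, rose less (log2 fold change 0.78, adjusted p = 0.0159). squ, another nuage gene, fell, with 120 and 73 counts against 165 and 292 (log2 fold change -0.94, adjusted p = 0.0394), and lost the call with library size alone (adjusted p = 0.0669). vas, the nuage helicase used as a germ line marker, had only 13 and 19 counts against 13 and 13 (log2 fold change 0.64, adjusted p = 0.418). rhi and del, which mark germ line clusters such as 42AB for transcription, had log2 fold changes of 0.17 (adjusted p = 0.731) and 0.075 (adjusted p = 0.749).

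With single libraries left out, the share of pathway genes called moved with the share of all features called. Without S05 it was 1 of 33 genes (spn-E, 3.03%, beside 3.96% of all features) and without S06 3 of 33 (krimp, nxf2 and spn-E, 9.09% beside 7.28%). Without S14 it was 14 of 35 (40% beside 45.7%) and without S15 10 of 35 (28.6% beside 31%). Transcripts of the testis moved in the same direction. Of 6 testis markers 5 rose, among them Mst87F (191 and 74 counts against 19 and 33, log2 fold change 2.60, adjusted p = 0.0087) and betaTub85D (1117 and 608 against 282 and 160, log2 fold change 2.19, adjusted p = 0.0082), with a median of 1.81 over the list. Of 6 tested germ line markers 1 rose, bgcn (log2 fold change 2.13, adjusted p = 0.0145), and bam was at 0 counts in S15. The other tested germ line markers, vas, osk, aub and rhi, are also members of the pathway list and so are no separate set. Of 5 head markers, nSyb (log2 fold change -0.47, adjusted p = 0.0462) and Syt1 (log2 fold change -0.57, adjusted p = 0.0171) fell and repo, the glial marker whose promoter gives the driver its name, rose (log2 fold change 0.48, adjusted p = 0.0129). The part of these markers in the pathway genes' values was not tested.

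**Figure D5:**
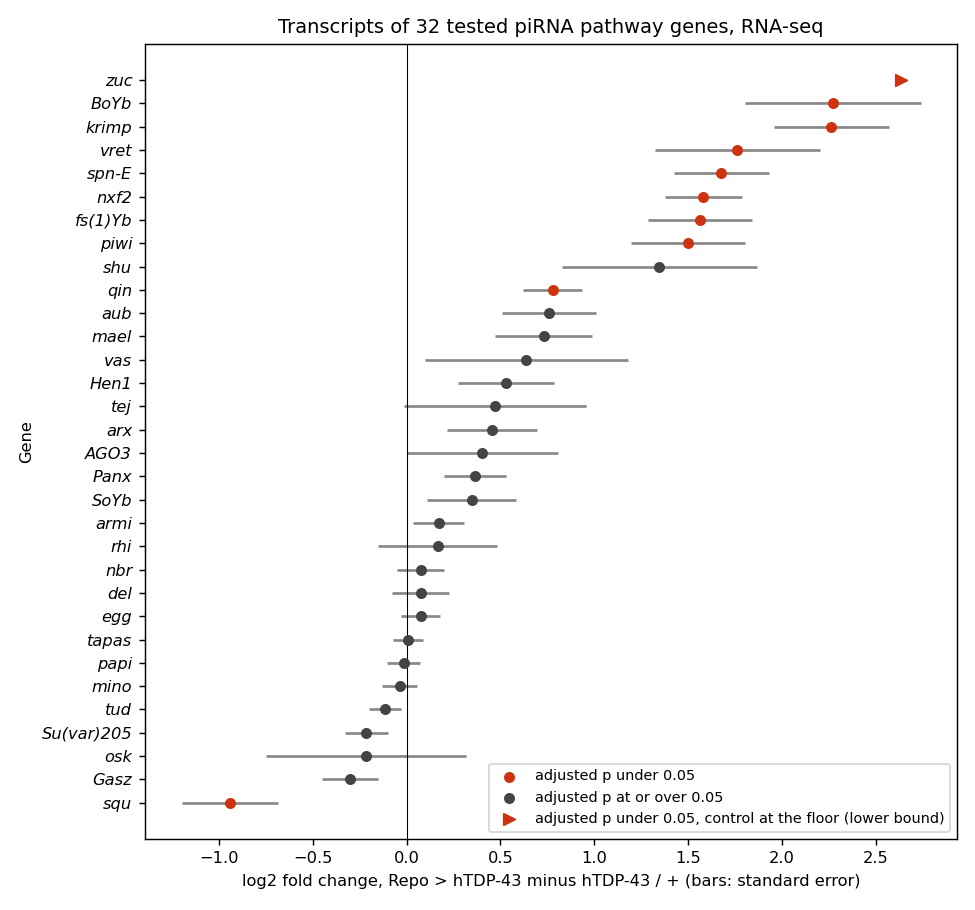
Log2 fold change (Repo > hTDP-43 minus hTDP-43 / +) of the 32 tested piRNA pathway genes in RNA-seq of heads, with standard errors. Red marks genes with an adjusted p under 0.05 (9 higher and 1 lower), and the triangle places zuc at its lower bound of 6.20-fold because its control libraries are at the floor.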

How the data were processed

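Heads were the source of all libraries, 6 of small RNA (3 per genotype) and 4 of RNA-seq used here (2 per genotype). The values the authors deposited are raw counts per annotated feature, whole numbers without normalization. Per the labels, small RNA reads were processed with Bowtie and bedtools on dm3 and RNA-seq reads with STAR. The rule by which a small RNA read with several locations was assigned is not given in the sources used here. Reads carry no molecular identifiers. The Poisson intervals on the summed cluster counts cover counting error only. The intervals of log2 fold changes are built from standard errors taken from the F statistic of the edgeR fit, which reflects the spread between libraries. For sparse rows such a standard error can fall below counting error, so its interval can be too narrow. The standard error of cluster12 was 0.23, beside 0.56 in DESeq2, and that of cluster44 was 0.22, beside 0.57. The p-values are those of the edgeR test itself. The ELAV > hTDP-43 libraries of the RNA-seq table were not used here.

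Counts were fitted in edgeR 4.0.16 (R 4.3.3, limma 3.58.1) by the quasi-likelihood test with TMM normalization and filterByExpr, and adjusted by Benjamini-Hochberg over 28127 small RNA features or 13507 RNA-seq features, at 0.05. Each fit held only the groups compared. Sums and ratios were compared by exact permutation of the libraries. The edgeR steps were tried on simulated counts with changes placed only in better covered features, which does not cover the sparse clusters. RPM divides a count by its library total. The alternatives were library size alone, library sizes from the study's mapped reads, TMM factors from miRNA or transposon rows, DESeq2 1.42.0, no filter, at least 10 counts in every library, an adjusted p under 0.01, other sums for the share and the ratio, and each library left out in turn. Leaving out S21 with S22, and library size with no filter, were added after seeing the data.

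Named are the 10 clusters with the highest mean TMM-scaled CPM (counts per 1000000 of the scaled library), up to 10 called ones per direction with a mean of at least 1 CPM and no overlap between groups, and 42AB and flam. Of the piRNA pathway list those called are named, with piwi, aub, AGO3, vas, zuc, armi and Hen1 in any case. cluster12, called at a mean under 1 CPM, and the other clusters and genes were named after their values were seen. Members and lists (piRNA pathway; head, germ line and testis markers; head, ovary and testis miRNAs) were chosen with earlier results of these data known.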

Additional observations from a re-analysis of the deposited data

How the results depend on the processing

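No paired analysis was possible because the genotypes share no replicate numbers in the labels. The count of called piRNA clusters, 2 with TMM scaling, was 1 with library size alone, with library sizes from the study, with TMM factors from miRNA or from transposon rows, with at least 10 counts in every library and with an adjusted p under 0.01, in each case cluster33. It was 0 with library size alone and no filter, where 7 clusters had an unadjusted p under 0.05. It was 2 with DESeq2 (cluster27 and cluster33), and 3 with no filter (cluster33, cluster39 and cluster99) and without S21 and S22 (cluster28, cluster33 and cluster42). With single libraries left out it ranged from 1 to 2. The median log2 fold change of the clusters was -0.18, beside 0.018 for all tested features. It was -0.015 beside 0.20 with TMM factors from transposon rows and -0.027 beside 0.11 with no filter. With library size alone and no filter it was 0.072 beside 0.21, and the last 2 settings cover 96 clusters. In each of these settings the median of the clusters lay below that of all features. The share of called features of all classes that were higher was 74.8% with TMM, 84.7% with library size alone and 85.5% with TMM factors from transposon rows. All features called numbered 2542 with TMM, 1658 with library size alone, 1274 with TMM factors from miRNA rows, 1341 with DESeq2, 1012 with at least 10 counts in every library and 667 with library size alone and no filter.

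The difference in the share of reads on clusters ranged from -7.72 to 2.09 RPM and that of the log2 ratio to transposons from -0.10 to 0.025 with single libraries left out, 0.0018 being the value without S23. Estimates near 0 changed sign with single libraries left out. cluster2 ranged from -0.38 to 0.049 (0.0057 without S19 and 0.049 without S22), cluster35 from -0.099 to 0.19 (-0.099 without S19 and -0.031 without S23 or S24) and cluster32 from -0.18 to 0.22 (-0.18 without S21 and -0.12 without S23). cluster32 was at -0.072 without S21 and S22. The count of called pathway genes ranged from 1 to 14 with single libraries left out, while all features called ranged from 3.96% to 45.7%, and was 9 with DESeq2 and 10 with library size alone or no filter. The cause of these changes was not tested. The filter left out 65 of 96 clusters, and at this depth a count of 0 allows up to 0.0965 RPM.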
